A study of Homo sapiens with 18 samples.

Results

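Ribosome biogenesis factors are the proteins that transcribe, modify, cut and fold ribosomal RNA and assemble it with ribosomal proteins, and 40 of their genes are described here across HKC-8, RCC4 and HepG2 cells in normoxia and hypoxia. The 40 genes were given as a list of names by function, a rule that uses no measured value, although the list was drawn up with earlier results of these data known. All 40 were found among the 23106 genes of the count tables, and all 40 passed the filter on low counts in every comparison, with a lowest count of 322 reads (BOP1 in 1 hypoxic RCC4 library). PolyA+ RNA was sequenced from 18 samples, with 3 replicates for each of 6 groups. HKC-8 is a line of renal proximal tubule cells. RCC4 is a renal carcinoma line that lacks a working VHL gene by origin, and the cells used here were stably transfected with wild-type VHL (RCC4+VHL in the labels), in normoxia as well as in hypoxia. HepG2 is a hepatocellular carcinoma line. Hypoxic HKC-8 and HepG2 cells are labelled as held at 0.5% oxygen for 16 h. For RCC4 cells the labelled exposure was 24 h at 1.0%. The text of the study describes the same exposure for every line, and which holds for RCC4 cells is not known. For HKC-8 cells the sample titles give 0.1%, which differs from the 0.5% of their other labels. Each line is 1 population of cells in culture, and nothing in the labels says whether replicates came from separate cultures, so a p-value measures the spread between these samples, which may be technical.

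Ribosome production begins in the nucleolus, where RNA polymerase I transcribes a long precursor of the ribosomal RNAs. Small nucleolar ribonucleoproteins (snoRNPs) of the box C/D kind methylate this precursor and those of the box H/ACA kind convert uridines to pseudouridine. Large complexes then cut and fold it into the small and the large subunit. The genes of this programme are among the best known targets of the transcription factor MYC, which binds the E-box, and ribosome production is one of the most costly activities of a growing cell.

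Total counts ran from 40915980 to 97984260 per library and were largest in HKC-8 cells. All 8 liver markers were detected in HepG2 cells, with a summed level of 35133 to 45710 CPM (counts per library scaled to a common total), against at most 11.2 CPM in both kidney lines. PAX8, a kidney transcription factor, had a mean of 165 CPM in normoxic HKC-8 and 132 CPM in normoxic RCC4 cells. PAX2 and LHX1, which mark the same epithelium, were below 3 counts per library on average in HKC-8 cells. Of 5 kidney markers (PAX8, PAX2, CDH16, LHX1 and EMX2), 2 were above 3 counts in all libraries of either HKC-8 group. This held for 4 in RCC4 and 3 in HepG2 cells. Their summed level in normoxia was 142 to 182 CPM in HKC-8, 392 to 401 CPM in RCC4 and 11.5 to 14.7 CPM in HepG2 cells. Both leukocyte markers were at or near 0, the summed level of 2 endothelial markers was at most 3.15 CPM, and the summed level of 4 fibroblast markers, carried in RCC4 and HepG2 cells by PDGFRB with COL1A2 at 0, was higher in hypoxia in each line (26.6 to 29.8 CPM in normoxic and 62.9 to 71.4 CPM in hypoxic HepG2 cells). Its part in the results was not tested. NDRG1, a hypoxia-induced gene, was higher in every hypoxic library than in any normoxic one, at 564 to 887 against 22.5 to 36.4 CPM in HKC-8 cells. CPM values are scaled by TMM (the trimmed mean of M values) over all 18 libraries and are relative to all other RNA in the library, so a lower level of a gene per cell and a higher level of the remaining RNA cannot be told apart.

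The 3rd normoxic and the 2nd hypoxic HKC-8 library each stood apart from their replicates. The summed level of the 40 genes was 12203, 12942 and 9419.7 CPM in normoxic HKC-8 cells, replicates 1 to 3, and 8687, 9963 and 8651 CPM in hypoxic ones. The groups overlapped through the 3rd normoxic and the 2nd hypoxic library. In RCC4 cells the sum was 5499 to 5647 CPM in normoxia and 5439 to 5627 CPM in hypoxia. In HepG2 cells it was 7673 to 7904 CPM in normoxia and 6939 to 7149.7 CPM in hypoxia, without overlap. The spread between replicates beyond counting error (edgeR's biological coefficient of variation) was 0.0437 in RCC4 and 0.0733 in HepG2 cells and 0.135 in HKC-8 cells.

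More biogenesis factors were lower than higher in hypoxia in each line. At an adjusted p under 0.05 (edgeR's quasi-likelihood test, adjusted over all genes tested), 16 of the 40 fell and 0 rose in HKC-8 cells, where 9.12% of all 13536 genes tested fell and 11.2% rose. No member had an unadjusted p under 0.05 for a rise, and DESeq2 called 24 falls and 0 rises. In RCC4 cells 20 fell and 4 rose, against 24.2% and 25.9% of 12811 genes. HepG2 cells had 24 that fell and 2 that rose, against 19.2% and 19.9% of 13623 genes. Median log2 fold changes over the members were -0.40 (HKC-8), -0.10 (RCC4) and -0.22 (HepG2), beside 0.00 over all genes tested in every line. A fold change below 0 was seen for 39, 29 and 36 of the 40 genes.

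The HKC-8 count rested on how the replicates were treated. The replicate numbers paired the 2nd and 3rd HKC-8 replicates, while a pairing of the 1st was not shown. With the number as a block 37 of 40 members were lower, where 21.6% of all genes were. FBL, NOP14 and PPAN were the members not called in the blocked fit. Without the block the count was 3 when the 1st normoxic library was left out, 6 without the 2nd normoxic and 34 without the 3rd normoxic library, and 3, 25 and 8 without the 1st, 2nd and 3rd hypoxic library. NOC3L, UTP15 and WDR75 were called in each of these 6 fits, and the other 13 lost their call both without the 1st normoxic and without the 1st hypoxic library. No fold change of a called member turned its sign. The share of all genes called in these 6 fits is not given here. A shift of the members alone therefore cannot be told from a shift of all calls. Over all genes, the share lower in all 3 lines was 0.998% without the 1st normoxic and 4.31% without the 2nd hypoxic HKC-8 library.

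**Figure D1:**
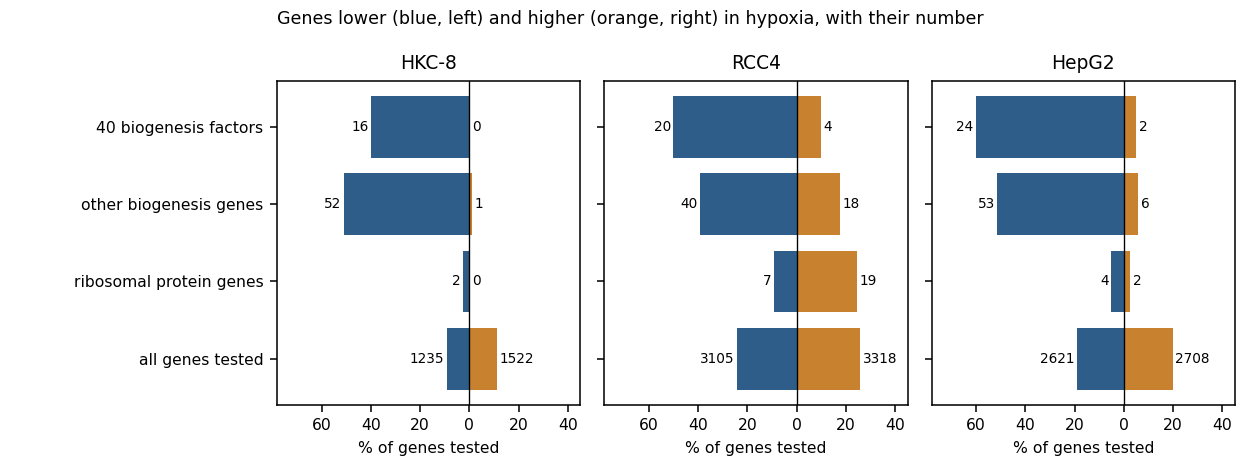
Horizontal bars give the percentage of genes tested that were lower (blue, to the left) or higher (orange, to the right) in hypoxia at an adjusted p under 0.05 in each cell line, with the number of genes at the bar's end. The 40 biogenesis factors and the other biogenesis genes lean to the left in all 3 lines (16, 20 and 24 of the 40 lower), while few ribosomal protein genes were called in HKC-8 and HepG2 cells.

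Other genes of the same process and the genes of the ribosome's own proteins were counted in the same fits. A further 103 biogenesis genes were listed, also with earlier results known, and of these 52 fell and 1 rose among 102 tested in HKC-8, 40 fell and 18 rose among 102 in RCC4, and 53 fell and 6 rose among 103 in HepG2 cells. Their median log2 fold changes were -0.36, -0.06 and -0.21. Of 77 cytosolic ribosomal protein genes tested, 2 fell and 0 rose in HKC-8, 7 fell and 19 rose in RCC4, and 4 fell and 2 rose in HepG2 cells, with medians of -0.06, 0.00 and -0.09. Beside these counts, 9.12% of all genes tested fell and 11.2% rose in HKC-8, 24.2% and 25.9% in RCC4, and 19.2% and 19.9% in HepG2 cells. The difference between the lists was not tested.

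Among the genes of RNA polymerase I transcription, 1, 1 and 2 of 5 fell in HKC-8, RCC4 and HepG2 cells, and none of the 5 rose in any line. Over all genes tested, 9.12%, 24.2% and 19.2% fell and 11.2%, 25.9% and 19.9% rose in these lines. The one of the 5 that fell in HKC-8 cells was UBTF, the factor that binds and opens ribosomal DNA. Its level was 165, 169 and 159.7 CPM in normoxia and 112, 135 and 124 CPM in hypoxia in HKC-8 cells, with no overlap (log2 fold change -0.41, SE 0.086, adjusted p = 0.012). UBTF stood at 96.8, 101 and 83.2 CPM in normoxia and 96.8, 91 and 85 CPM in hypoxia in RCC4 cells and did not pass (log2 fold change -0.036, SE 0.055, adjusted p = 0.619). In HepG2 cells it was at 114, 114 and 125 CPM in normoxia and 105, 109 and 118 CPM in hypoxia, again with overlapping groups (log2 fold change -0.089, SE 0.065, adjusted p = 0.301). POLR1B, the second largest subunit of the polymerase, fell in RCC4 (-0.11, SE 0.042, adjusted p = 0.0268 on the log2 scale) and HepG2 cells (-0.33, SE 0.065, adjusted p = 0.00147), and POLR1C, a subunit shared with RNA polymerase III, fell in HepG2 cells (-0.35, SE 0.091, adjusted p = 0.00795).

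POLR1A, the catalytic subunit, was called in none of the 3 lines. Its level was 154, 188 and 135 CPM in normoxia and 113, 149.5 and 118 CPM in hypoxia in HKC-8 cells (log2 fold change -0.32, SE 0.14, adjusted p = 0.138), where the call turned with the replicate block (adjusted p = 0.00244). RCC4 cells had 56.2, 57.1 and 50.3 CPM in normoxia and 52.4, 49.5 and 51.9 CPM in hypoxia of POLR1A, with overlap (log2 fold change -0.085, SE 0.05, adjusted p = 0.168), and HepG2 cells had 137, 121 and 152 CPM in normoxia and 115, 124 and 127 CPM in hypoxia (log2 fold change -0.16, SE 0.075, adjusted p = 0.111). RRN3, the initiation factor that recruits the polymerase, was likewise called in no line (log2 fold change -0.22, -0.012 and 0.023 in HKC-8, RCC4 and HepG2 cells), and its blocked adjusted p in HKC-8 cells was 0.00869.

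Of the box C/D snoRNP proteins, NOP56 and NOP58 fell and FBL rose in HepG2 cells. NOP56 and NOP58 are paired core proteins that hold the guide RNA, and FBL (fibrillarin) is the methyltransferase of the same particle. NOP56 fell in all 3 lines, and its level was 453, 495 and 374 CPM in normoxia and 320.0, 356 and 324 CPM in hypoxia in HKC-8 cells (log2 fold change -0.40, SE 0.11, adjusted p = 0.0338). RCC4 cells held 124, 123 and 121 CPM in normoxia and 117, 113 and 112 CPM in hypoxia of NOP56 (log2 fold change -0.097, SE 0.037, adjusted p = 0.0316). In HepG2 cells NOP56 was at 518, 631 and 527 CPM in normoxia and 409.6, 438 and 410.4 CPM in hypoxia (log2 fold change -0.41, SE 0.08, adjusted p = 0.00119). The groups did not overlap in any line, and the RCC4 fall was 6.5%. NOP58 fell in HKC-8 (-0.50, SE 0.10, adjusted p = 0.0107) and HepG2 cells (-0.22, SE 0.06, adjusted p = 0.0095) and did not pass in RCC4 cells (-0.09, SE 0.045, adjusted p = 0.0977).

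FBL rose in HepG2 cells, where it went from 158, 152 and 146 CPM in normoxia to 191, 179.6 and 185 CPM in hypoxia with no overlap (log2 fold change 0.29, SE 0.058, adjusted p = 0.00178). Its HKC-8 levels were 186, 212 and 181 CPM in normoxia and 184, 219 and 185 CPM in hypoxia and overlapped (log2 fold change 0.024, SE 0.099, adjusted p = 0.888). FBL in RCC4 cells was at 202, 208 and 198 CPM in normoxia and 208, 218 and 203 CPM in hypoxia (log2 fold change 0.055, SE 0.036, adjusted p = 0.218). FBL was the one member whose fold change was above 0 in all 3 lines, although only the HepG2 change passed the test.

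Box H/ACA snoRNPs are built from DKC1 (dyskerin, the pseudouridine synthase) with NHP2, NOP10 and GAR1. Of these 4 genes 1, 3 and 2 fell in HKC-8, RCC4 and HepG2 cells, and none rose. The shares of all genes tested that fell were 9.12%, 24.2% and 19.2%. GAR1 fell in each line. It was at 39.6, 41.7 and 33.9 CPM in normoxia and 26.9, 29.7 and 27.8 CPM in hypoxia in HKC-8 cells (log2 fold change -0.44, SE 0.10, adjusted p = 0.016). RCC4 levels of GAR1 were 22.7, 23.3 and 23.8 CPM in normoxia and 18.2, 19.4 and 19.5 CPM in hypoxia (log2 fold change -0.28, SE 0.062, adjusted p = 0.000546), and HepG2 levels were 22.5, 20.3 and 24.3 CPM in normoxia and 17.1, 19 and 20 CPM in hypoxia (log2 fold change -0.26, SE 0.09, adjusted p = 0.0346). In all 3 lines every hypoxic value of GAR1 lay below every normoxic one. NOP10 fell in RCC4 (-0.21, SE 0.045, adjusted p = 0.000387) and HepG2 cells (-0.44, SE 0.075, adjusted p = 0.000511), and NHP2 in RCC4 cells (-0.18, SE 0.038, adjusted p = 0.000357).

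DKC1 itself was called in no line. It was at 279.7, 323 and 225 CPM in normoxia and 193, 244 and 209 CPM in hypoxia in HKC-8 cells, with overlap (log2 fold change -0.35, SE 0.14, adjusted p = 0.101, and adjusted p = 0.00531 with the replicate block). DKC1 stood at 166, 162 and 158 CPM in normoxia and 153, 156 and 158 CPM in hypoxia in RCC4 cells (log2 fold change -0.053, SE 0.035, adjusted p = 0.224). HepG2 cells had 169.7, 167 and 165 CPM in normoxia and 151, 153 and 153 CPM in hypoxia, where the groups did not overlap but the adjusted p missed the threshold (log2 fold change -0.14, SE 0.054, adjusted p = 0.0591).

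Of the 6 scaffold proteins and regulators of the nucleolus, 1 fell in HKC-8 cells (GNL3), 1 fell and 2 rose in RCC4, and 2 fell in HepG2 cells. Of all genes tested, 9.12% fell and 11.2% rose in HKC-8, 24.2% and 25.9% in RCC4, and 19.2% and 19.9% in HepG2 cells. NCL (nucleolin), an abundant RNA-binding protein of the nucleolus, was called in no line. Its HKC-8 levels were 2504, 2635 and 1829 CPM in normoxia and 1908, 2108 and 1753 CPM in hypoxia, and the groups overlapped through the 3rd normoxic library (log2 fold change -0.27, SE 0.14, adjusted p = 0.201, and adjusted p = 0.0122 with the replicate block). NCL in RCC4 cells was at 565, 556 and 512 CPM in normoxia and 564, 539 and 525 CPM in hypoxia (log2 fold change 0.0015, SE 0.037, adjusted p = 0.977). HepG2 levels were 1362, 1253 and 1417 CPM in normoxia and 1269, 1312 and 1299 CPM in hypoxia and also overlapped (log2 fold change -0.055, SE 0.062, adjusted p = 0.514).

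NPM1 (nucleophosmin), a chaperone that binds ribosomal proteins and RNA, rose in RCC4 cells by 6.6%, from 1673, 1629 and 1704 CPM to 1723, 1848 and 1746 CPM (log2 fold change 0.092, SE 0.032, adjusted p = 0.0201). Its levels were 3026, 3063 and 2343 CPM in normoxia and 2211, 2467 and 2260.2 CPM in hypoxia in HKC-8 cells (log2 fold change -0.28, SE 0.12, adjusted p = 0.121, and adjusted p = 0.0132 for a lower level with the replicate block). They were 1860.1, 1940.1 and 1739 CPM in normoxia and 1765, 1845 and 1767 CPM in hypoxia in HepG2 cells (log2 fold change -0.044, SE 0.065, adjusted p = 0.63). NPM1 has 49 named pseudogenes, and fragments that did not map uniquely were removed before counting, so its level is uncertain.

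DDX21, an RNA helicase of the nucleolus, also rose in RCC4 cells, from 298, 296 and 286 CPM to 310.2, 309 and 312 CPM (log2 fold change 0.087, SE 0.032, adjusted p = 0.0269). MYBBP1A, a nucleolar protein that binds the Myb oncoprotein, fell there from 73.4, 80.3 and 63.5 CPM to 51.3, 46.7 and 45.5 CPM (log2 fold change -0.59, SE 0.063, adjusted p = 4.24e-08), a drop of 33.7%. MYBBP1A fell in HepG2 cells too (-0.22, SE 0.058, adjusted p = 0.00854), as did NOLC1, a chaperone of snoRNPs (-0.22, SE 0.063, adjusted p = 0.014). GNL3 (nucleostemin), a GTPase, fell in HKC-8 cells (-0.43, SE 0.098, adjusted p = 0.0172). Leaving out the 3rd normoxic, the 1st hypoxic or the 3rd hypoxic RCC4 library ended the call of DDX21, and leaving out the 2nd normoxic or the 2nd hypoxic one ended that of NPM1.

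The 10 small subunit factors held the largest fall in each line. Some of them belong to the processome, the complex that assembles on the first part of the precursor RNA. Of the 10, 5 fell in HKC-8, 6 fell and 2 rose in RCC4, and 7 fell in HepG2 cells. Among all genes tested, 9.12% fell in HKC-8, 24.2% fell and 25.9% rose in RCC4, and 19.2% fell in HepG2 cells. RRP9, a protein of the snoRNP that base-pairs with the precursor at its early cuts, had the largest fall of the 40 genes in each line and lies at chr3:51967445-51975920 (GRCh37). Its level was 64.3, 72.6 and 42.8 CPM in normoxia and 28, 43 and 25.7 CPM in hypoxia in HKC-8 cells, and the groups overlapped because the 2nd hypoxic library lay just above the 3rd normoxic one (log2 fold change -0.89, SE 0.23, adjusted p = 0.0263). RRP9 was at 27.3, 31.2 and 28.3 CPM in normoxia and 18.4, 17.9 and 18.2 CPM in hypoxia in RCC4 cells (log2 fold change -0.67, SE 0.063, adjusted p = 6.81e-09). HepG2 cells had 45.7, 48.1 and 50.3 CPM in normoxia and 29.4, 31.9 and 32.2 CPM in hypoxia (log2 fold change -0.63, SE 0.07, adjusted p = 1.36e-05). These were drops of 46.0%, 37.1% and 35.2%.

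UTP15 and WDR75 belong to the processome part that also acts in transcription of ribosomal DNA, and both fell in all 3 lines. UTP15 was at 63.4, 63.4 and 49.6 CPM in normoxia and 36.6, 40.7 and 39.3 CPM in hypoxia in HKC-8 cells (log2 fold change -0.59, SE 0.11, adjusted p = 0.00717). Its RCC4 levels were 36.8, 36.2 and 38.8 CPM in normoxia and 32.1, 35.3 and 34 CPM in hypoxia (log2 fold change -0.13, SE 0.054, adjusted p = 0.0431), and its HepG2 levels were 37.4, 37.5 and 44.8 CPM in normoxia and 28.5, 26.4 and 26.5 CPM in hypoxia (log2 fold change -0.55, SE 0.082, adjusted p = 0.000158). The groups were apart in each line. WDR75 was at 142, 139 and 118 CPM in normoxia and 87.9, 92.6 and 92.2 CPM in hypoxia in HKC-8 cells (log2 fold change -0.55, SE 0.088, adjusted p = 0.00408). RCC4 cells had 65.3, 64.3 and 67 CPM in normoxia and 59.4, 62.3 and 57.3 CPM in hypoxia of WDR75 (log2 fold change -0.13, SE 0.045, adjusted p = 0.0202). In HepG2 cells it stood at 99.2, 90.4 and 107 CPM in normoxia and 75.8, 76.3 and 82.4 CPM in hypoxia (log2 fold change -0.34, SE 0.068, adjusted p = 0.0015).

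UTP20 and WDR43 were called in opposite directions in different lines. UTP20 (chr12:101673883-101780396), a large scaffold protein of the processome, fell in HKC-8 cells from 240.5, 279.7 and 185 CPM to 145, 176 and 154 CPM (log2 fold change -0.57, SE 0.14, adjusted p = 0.0245). It rose in RCC4 cells from 85.1, 80.8 and 73.4 CPM to 91.6, 90.1 and 92.8 CPM (log2 fold change 0.20, SE 0.046, adjusted p = 0.000818). HepG2 levels of UTP20 were 91.6, 83.8 and 108 CPM in normoxia and 84.4, 92.8 and 90.6 CPM in hypoxia and overlapped (log2 fold change -0.08, SE 0.08, adjusted p = 0.464). WDR43 (chr2:29117533-29171085), a partner of UTP15 and WDR75, rose in RCC4 cells from 82, 79 and 80.1 CPM to 111, 108 and 109 CPM, a gain of 36.8% (log2 fold change 0.45, SE 0.038, adjusted p = 1.13e-09). It fell in HepG2 cells from 220.4, 215 and 227 CPM to 196, 200.4 and 191 CPM (log2 fold change -0.17, SE 0.055, adjusted p = 0.0234). WDR43 in HKC-8 cells was at 259, 267 and 181 CPM in normoxia and 164, 182 and 174 CPM in hypoxia, with overlap (log2 fold change -0.44, SE 0.14, adjusted p = 0.0526, and adjusted p = 0.00687 for a lower level with the replicate block). The rise of WDR43 was the largest of any member in any line.

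NOC4L, which works with NOP14 in maturation of the small subunit, fell in RCC4 cells from 32.5, 37 and 33.1 CPM to 26.4, 24.6 and 24.1 CPM (log2 fold change -0.45, SE 0.061, adjusted p = 1.97e-06) and fell in HepG2 cells (-0.22, SE 0.076, adjusted p = 0.0324). RRP12, which takes part in export of the small subunit, and BYSL (bystin), an assembly factor of the small subunit, also fell in both lines. The RRP12 change was -0.38 ± 0.046 (SE, adjusted p = 2.83e-07) in RCC4 and -0.21 ± 0.076 (SE, adjusted p = 0.0412) in HepG2 cells, and that of BYSL was -0.38 ± 0.046 (SE, adjusted p = 4.46e-07) and -0.28 ± 0.07 (SE, adjusted p = 0.00609). UTP18 fell in HKC-8 cells alone among the calls (-0.38, SE 0.10, adjusted p = 0.0294), and NOP14 was called in no line, with log2 fold changes of -0.16, 0.065 and -0.069.

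Of the 12 large subunit factors, 6, 8 and 9 were lower in HKC-8, RCC4 and HepG2 cells, and PPAN was higher in HepG2 cells. Lower levels were called for 9.12%, 24.2% and 19.2% of all genes tested, and higher levels in HepG2 cells for 19.9%. BOP1, PES1 and WDR12 form the PeBoW complex, which is needed to process the large subunit RNAs. WDR12 fell in all 3 lines. Its level was 94.7, 104 and 87.8 CPM in normoxia and 71.4, 84.1 and 75.6 CPM in hypoxia in HKC-8 cells (log2 fold change -0.31, SE 0.093, adjusted p = 0.0465). In RCC4 cells WDR12 was at 51.5, 49.7 and 45.7 CPM in normoxia and 42.3, 43.1 and 44.7 CPM in hypoxia (log2 fold change -0.17, SE 0.051, adjusted p = 0.0076), and in HepG2 cells at 111, 107 and 116 CPM in normoxia and 85.7, 86.9 and 83 CPM in hypoxia (log2 fold change -0.39, SE 0.057, adjusted p = 0.000145). BOP1 fell in RCC4 cells from 10.2, 12.1 and 10.6 CPM to 7.81, 8.47 and 6.66 CPM (log2 fold change -0.51, SE 0.10, adjusted p = 0.000204) and in HepG2 cells (-0.24, SE 0.064, adjusted p = 0.0099). PES1 was called in no line without the replicate block, and its fold changes were -0.21, 0.088 and 0.17 on the log2 scale. With the block it was lower in HKC-8 (adjusted p = 0.0391) and higher in RCC4 (adjusted p = 0.0305) and HepG2 cells (adjusted p = 0.0243).

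NOP2, RRS1, EBNA1BP2 and NIP7, of the same group, also fell in all 3 lines. NOP2 is a methyltransferase of the large subunit RNA, and its HKC-8 levels were 172, 201 and 137 CPM in normoxia and 102, 134 and 102 CPM in hypoxia (log2 fold change -0.59, SE 0.15, adjusted p = 0.0277). RCC4 cells had 115, 115 and 100.4 CPM in normoxia and 96.7, 90.2 and 92.7 CPM in hypoxia of NOP2 (log2 fold change -0.24, SE 0.047, adjusted p = 0.000203). HepG2 cells had 101, 101 and 109.6 CPM in normoxia and 76.4, 77.6 and 82 CPM in hypoxia (log2 fold change -0.40, SE 0.06, adjusted p = 0.000172). RRS1, an assembly factor of the particle that carries the smallest ribosomal RNA, had the largest fall after RRP9 in HKC-8 cells. RRS1 went from 62.3, 63.1 and 37.6 CPM to 29.5, 41.1 and 24.8 CPM there, with the 2nd hypoxic library above the 3rd normoxic one (log2 fold change -0.77, SE 0.22, adjusted p = 0.0412). Its levels were 54.4, 54.9 and 51.7 CPM in normoxia and 44.6, 43.3 and 42.6 CPM in hypoxia in RCC4 cells (log2 fold change -0.30, SE 0.046, adjusted p = 1.19e-05). They were 47.7, 47.5 and 48.7 CPM in normoxia and 33.4, 32.1 and 34.7 CPM in hypoxia in HepG2 cells (log2 fold change -0.52, SE 0.064, adjusted p = 3.06e-05), a drop of 30.4%.

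EBNA1BP2, a scaffold of early large subunit particles, was at 223, 242 and 180.1 CPM in normoxia and 146, 171 and 136 CPM in hypoxia in HKC-8 cells (log2 fold change -0.51, SE 0.13, adjusted p = 0.023). The RCC4 levels of EBNA1BP2 were 163, 164 and 155 CPM in normoxia and 142, 146 and 138 CPM in hypoxia (log2 fold change -0.17, SE 0.037, adjusted p = 0.000555), and the HepG2 levels were 90.7, 102 and 103 CPM in normoxia and 83.1, 85.7 and 88.9 CPM in hypoxia (log2 fold change -0.20, SE 0.066, adjusted p = 0.0288). NIP7, which helps to process the precursor RNA, was at 109, 116 and 83.8 CPM in normoxia and 66.2, 75.4 and 63.7 CPM in hypoxia in HKC-8 cells (log2 fold change -0.59, SE 0.13, adjusted p = 0.0129). NIP7 stood at 142, 145 and 141 CPM in normoxia and 127, 130.2 and 133 CPM in hypoxia in RCC4 cells (log2 fold change -0.13, SE 0.036, adjusted p = 0.00492). In HepG2 cells it was at 132, 124 and 144 CPM in normoxia and 104, 109 and 109 CPM in hypoxia (log2 fold change -0.31, SE 0.063, adjusted p = 0.00151). Both genes had hypoxic values below all normoxic ones in each line.

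NOC3L fell in HKC-8 cells from 138, 135 and 107 CPM to 78.8, 80.3 and 79.3 CPM, with tightly grouped hypoxic values (log2 fold change -0.67, SE 0.10, adjusted p = 0.00305), and in HepG2 cells (-0.44, SE 0.085, adjusted p = 0.00121), and did not pass in RCC4 cells (-0.029, SE 0.044, adjusted p = 0.609). NOP16 fell in HepG2 cells from 43.7, 44.8 and 50.1 CPM to 31.7, 31.7 and 35 CPM (log2 fold change -0.49, SE 0.075, adjusted p = 0.000182), and it fell in RCC4 cells (-0.27, SE 0.045, adjusted p = 2.53e-05), as did NOC2L in both lines (-0.20 in RCC4 and -0.17 in HepG2 cells). PPAN rose in HepG2 cells from 30.2, 32.2 and 31.8 CPM to 36.6, 38.5 and 39.6 CPM (log2 fold change 0.28, SE 0.068, adjusted p = 0.00534). P2RY11 overlaps 1.7% of the exons of PPAN on the same strand. RRP1B was called in no line, with log2 fold changes of -0.33, 0.069 and -0.069, and its blocked adjusted p in HKC-8 cells was 0.00648.

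**Figure D2:**
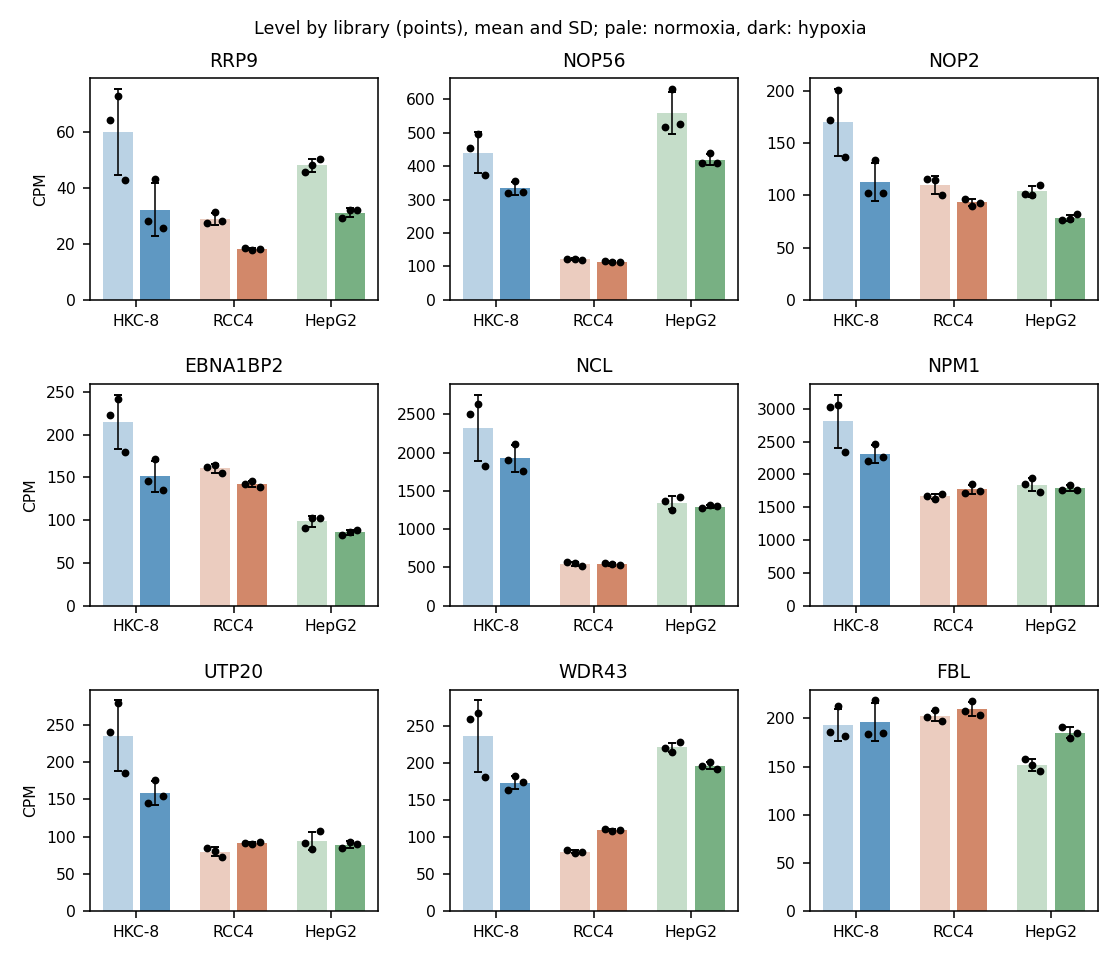
Each panel gives the CPM of 1 gene, with bars for the mean of 3 libraries, error bars for the SD, points for the libraries, pale bars for normoxia and dark bars for hypoxia. RRP9, NOP56, NOP2 and EBNA1BP2 are lower in hypoxia in all 3 lines, NCL is highest in HKC-8 cells, UTP20 and WDR43 are higher in hypoxia in RCC4 cells, and FBL is higher in hypoxic HepG2 cells.

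Calls in RCC4 and HepG2 cells also depended in part on single libraries. In RCC4 cells 17 of 24 calls held whichever library was left out. Besides DDX21 and NPM1, the calls of NOP56, UTP15, POLR1B, WDR75 and WDR12 ended in 1 to 4 of 6 such fits, and the 1st normoxic library was the one that ended WDR12. NOP56 lost its call without the 1st or 2nd normoxic or the 2nd or 3rd hypoxic library, UTP15 without the 1st or 3rd of either group, POLR1B without the 3rd normoxic or 1st hypoxic, and WDR75 without the 3rd of either group. In HepG2 cells 16 of 26 calls held throughout, and 15 members in place of 24 were lower without the 1st hypoxic library. The HepG2 calls of MYBBP1A, NOLC1 and NOP58 ended without the 1st hypoxic library alone and that of BOP1 without the 2nd alone, while those of EBNA1BP2, GAR1, NOC2L, NOC4L, RRP12 and WDR43 ended in 3 to 5 of the 6 fits. In 1 fit of all 18 samples, where the lines share 1 estimate of the spread, 4 members were lower and 1 higher in RCC4 cells, and 15 lower and 1 higher in HepG2 cells.

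Across the lines, 10 members fell in all 3, where 3.43% of the 11418 genes tested in all 3 lines did. These were NOP56, GAR1, UTP15, WDR75, RRP9, WDR12, NOP2, RRS1, EBNA1BP2 and NIP7. With the replicate block in HKC-8 cells the number was 19, against 6.51% of genes, and by DESeq2 it was 16, against 4.15%. In 1 fit of all 18 samples it was 2, GAR1 and RRP9, against 3.11%. It was also 2, UTP15 and WDR75, without the 1st normoxic (0.998% of genes) or the 1st hypoxic HKC-8 library (1.05%). The number was 3 without the 2nd normoxic (1.51%) and 4 without the 3rd hypoxic one (1.69%). Without the 3rd normoxic or the 2nd hypoxic one it was 18 (4.21% and 4.31%). Leaving out a library of RCC4 or HepG2 cells left 7 to 10 (2.62% to 3.45% of genes). A further 7 members, POLR1A, RRN3, DKC1, NCL, NOP14, PES1 and RRP1B, were called in no line, and 28.6% of all genes were called in none. With the block in HKC-8 cells this left NOP14 alone (22% of all genes). UTP20 and WDR43, 2 of the 40, fell in 1 line and rose in another, as did 5.97% of all genes. With the block DDX21 (adjusted p = 0.0127) and NPM1, which rose in RCC4 cells, were also lower in HKC-8 cells, which made 4 such members against 9.39% of genes. Without the 1st or 2nd normoxic or the 1st or 3rd hypoxic HKC-8 library WDR43 was the one such member (4.47% to 5.29% of genes). Without the 3rd normoxic HKC-8 library there were 4 (6.55%). UTP20 was the one such member without the 1st normoxic or any of the hypoxic HepG2 libraries (4.74% to 5.19% of genes). There were 3 without the 2nd normoxic HepG2 library or without the 3rd normoxic or 3rd hypoxic RCC4 library (5.24% to 5.56%).

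The difference in response was tested between HKC-8 and HepG2 cells, and 0 of 40 members passed in either direction by edgeR. Of all 15046 genes tested, 5.02% had a HepG2 response above that of HKC-8 cells and 4.28% one below it. At an unadjusted p under 0.05 the count of members was 7 above and 0 below, and DESeq2 called 1 above. The median difference of the 40 genes, HepG2 minus HKC-8 response, was 0.24 on the log2 scale. With the replicate block 7 members had a HepG2 response above that of HKC-8 cells (all genes, 11%). These were UTP20 (difference 0.48, adjusted p = 0.0143), RRP12 (0.44, 0.0133), PPAN (0.39, 0.0268), PES1 (0.38, 0.0132), UBTF (0.33, 0.0144), EBNA1BP2 (0.31, 0.0181) and FBL (0.27, 0.0249). Without the block, 8 members passed when the 3rd normoxic HKC-8 library was left out and 3 without the 2nd hypoxic one. The labels of both lines give 0.5% for 16 h, apart from the HKC-8 titles with 0.1%, so the exposures may not have been equal. The RCC4 response was not tested against the others because its labelled oxygen level and duration differ.

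Promoter sequence was available for 34 members in RefSeq (GRCh38.p14), from 250 bases before to 50 bases after the start of the transcript. The E-box CACGTG, which is its own reverse complement, was found in 13 of these 34 promoters (38.2%) and in 8.85% of the 14345 promoters of genes in the count tables. The shorter motifs of hypoxia response elements, searched on both strands, were in 17 (ACGTG, which every CACGTG contains) and 23 (GCGTG) of the 34 member promoters, and in 3406 and 6305 of the 14345. The E-box windows of 3 genes that fell in all lines (RRP9, NOP2 and EBNA1BP2) of UTP20 and WDR43, which were called in opposite directions, and of FBL, which rose in HepG2 cells, follow, with the E-box in capitals.
RRP9 (chr3:51941892-51941921, minus strand): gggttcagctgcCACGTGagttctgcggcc
NOP2 (chr12:6568242-6568268, minus strand): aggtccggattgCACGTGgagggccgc
EBNA1BP2 (chr1:43172790-43172819, minus strand): gatattgttggcCACGTGggatcgaagacc
UTP20 (chr12:101280083-101280112, plus strand): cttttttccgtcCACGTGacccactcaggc
WDR43 (chr2:28894658-28894687, plus strand): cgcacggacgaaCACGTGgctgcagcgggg
FBL (chr19:39846356-39846385, minus strand): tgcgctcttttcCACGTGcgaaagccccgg

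The E-box began 5 bases before the start in RRP9, 10 before in UTP20 and 237 before in EBNA1BP2, and at transcribed base 4 in WDR43, 7 in FBL and 36 in NOP2. It was thus present in genes that fell in each line and in genes that rose in 1 line. The 13 members with an E-box had median log2 fold changes of -0.44, -0.11 and -0.20 in HKC-8, RCC4 and HepG2 cells, and the 21 without had -0.37, -0.10 and -0.18. A match describes these letters in this window and does not show that a factor binds there.

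The level of MYC, whose protein binds the E-box, was called higher in both kidney lines. It rose in HKC-8 cells from 149, 173 and 121 CPM to 241, 236 and 232 CPM (log2 fold change 0.68, SE 0.12, adjusted p = 0.0061) and in RCC4 cells from 138, 140.2 and 131 CPM to 165, 159 and 159 CPM (log2 fold change 0.25, SE 0.037, adjusted p = 6.32e-06). HepG2 levels of MYC were 195, 196 and 201 CPM in normoxia and 193, 175 and 197 CPM in hypoxia and overlapped (log2 fold change -0.065, SE 0.061, adjusted p = 0.43). Of 9 listed genes of the MYC network 8 were tested. Of these 4 were higher and 1 lower in HKC-8, 2 higher and 2 lower in RCC4, and 2 higher and 1 lower in HepG2 cells. Over all genes tested, 11.2% were higher and 9.12% lower in HKC-8, 25.9% and 24.2% in RCC4, and 19.9% and 19.2% in HepG2 cells. MXI1, an antagonist of MYC that was named after its values were seen, rose in each line (log2 fold change 1.89, 0.98 and 1.19, adjusted p = 0.000408, 1.4e-13 and 7.83e-08).

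In normoxia more members were lower than higher in RCC4 and in HepG2 cells, each set against HKC-8 cells. Against normoxic HKC-8 cells, 30 of 40 members were lower and 3 higher in RCC4 cells, where 41.4% and 39.4% of 14806 genes were, and 24 were lower and 8 higher in HepG2 cells, against 40.5% and 42.6% of genes. HepG2 cells had 21 members higher and 8 lower than RCC4 cells, against 45.3% and 38.1% of genes. The median log2 differences were -0.77, -0.46 and 0.33, where the median of all genes was -0.01, 0.02 and 0.11. With counts thinned to equal totals, 30 were lower and 3 higher in RCC4 than in HKC-8 cells, 25 lower and 7 higher in HepG2 than in HKC-8 cells, and 20 higher and 8 lower in HepG2 than in RCC4 cells. By the labels, only the HKC-8 samples were split over lanes, and this cannot be told apart from the line. Of the 8 members higher in HepG2 than in HKC-8 cells, 5 were left without the 3rd normoxic HKC-8 library, and 5 without the 1st or the 2nd normoxic HepG2 library.

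The nucleolar scaffold genes were lower in RCC4 and in HepG2 than in HKC-8 cells, 6 of 6 in each, where 41.4% and 40.5% of all genes were. The largest difference was that of GNL3 (chr3:52715172-52728513), at 249.7, 251 and 201 CPM in HKC-8, 51.2, 48.6 and 53.8 CPM in RCC4 and 149, 155 and 158 CPM in HepG2 cells (RCC4 against HKC-8 cells -2.18, SE 0.087, adjusted p = 2.76e-11). NCL (chr2:232318242-232348352) followed, with the normoxic values given before, at a log2 difference of -2.08 ± 0.12 (SE, adjusted p = 1.17e-09) between RCC4 and HKC-8 cells. NOLC1 stood at 589.9, 654 and 475 CPM in HKC-8, 151, 146 and 132 CPM in RCC4 and 249.8, 247 and 281 CPM in HepG2 cells, lower than HKC-8 in RCC4 (-1.99, SE 0.11, adjusted p = 6.25e-10) and HepG2 cells (-1.12, SE 0.10, adjusted p = 2.06e-07). For these genes the libraries of the 3 lines did not overlap. In HepG2 cells UTP20 (-1.30) and NOC3L (-1.24) were the members farthest below HKC-8 cells, NOC3L at 51.6, 47.7 and 59.4 against 138, 135 and 107 CPM.

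A few genes went the other way. BOP1 was at 83.5, 80.8 and 80 CPM in normoxic HepG2, 21.3, 22.8 and 12.3 CPM in HKC-8 and 10.2, 12.1 and 10.6 CPM in RCC4 cells, a log2 difference of 2.14 ± 0.17 (SE, adjusted p = 4.22e-08) over HKC-8 and 2.90 ± 0.18 (SE, adjusted p = 2.56e-09) over RCC4 cells. NHP2 was highest in RCC4 cells, with 184, 200.1 and 193 CPM against 135, 129 and 88.8 CPM in HKC-8 (0.72, SE 0.13, adjusted p = 0.000108) and 74.2, 79.9 and 67.3 CPM in HepG2 cells (HepG2 against RCC4 cells -1.37, SE 0.13, adjusted p = 1.93e-07). NOC4L was higher in RCC4 than in HKC-8 cells, at 32.5, 37 and 33.1 against 25.6, 25.8 and 14.4 CPM (0.65, SE 0.17, adjusted p = 0.00241), and NIP7 was higher than in HKC-8 cells in both RCC4 (0.48, SE 0.10, adjusted p = 0.00053) and HepG2 cells (0.39, SE 0.10, adjusted p = 0.0026). NOP10 was highest in HepG2 cells, with 108, 121 and 104 CPM against 69.8, 81.7 and 63.5 CPM in HKC-8 cells (0.65, SE 0.091, adjusted p = 1.28e-05).

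NOP56 and NOP14 set HepG2 apart from RCC4 cells. NOP56 was higher in HepG2 by 2.20 ± 0.11 (SE, adjusted p = 1.46e-10) on the log2 scale, and NOP14, at 81.4, 76.2 and 83.6 CPM in HepG2 against 20.9, 23.1 and 21.5 CPM in RCC4 cells, by 1.89 ± 0.10 (SE, adjusted p = 6.35e-10). EBNA1BP2 (-0.69, SE 0.096, adjusted p = 1.2e-05) and RRP12 (-0.66, SE 0.16, adjusted p = 0.00143) were lower in HepG2 than in RCC4 cells, RRP12 at 66.4, 75.2 and 78.8 against 116, 125 and 109 CPM. By mean level, 18 members were in the order HKC-8, HepG2, RCC4 from the highest, 8 in the order HepG2, HKC-8, RCC4 and 8 in the order HKC-8, RCC4, HepG2, and 6 were highest in RCC4 cells. At an adjusted p under 0.05, no difference was called for 7 members between RCC4 and HKC-8, for 8 between HepG2 and HKC-8 and for 11 between HepG2 and RCC4 cells. Among all 14806 genes tested, the numbers without a call were 2850, 2511 and 2468. Whichever library was left out, 31 of 33, 27 of 32 and 25 of 29 calls held in these 3 contrasts.

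**Figure D3:**
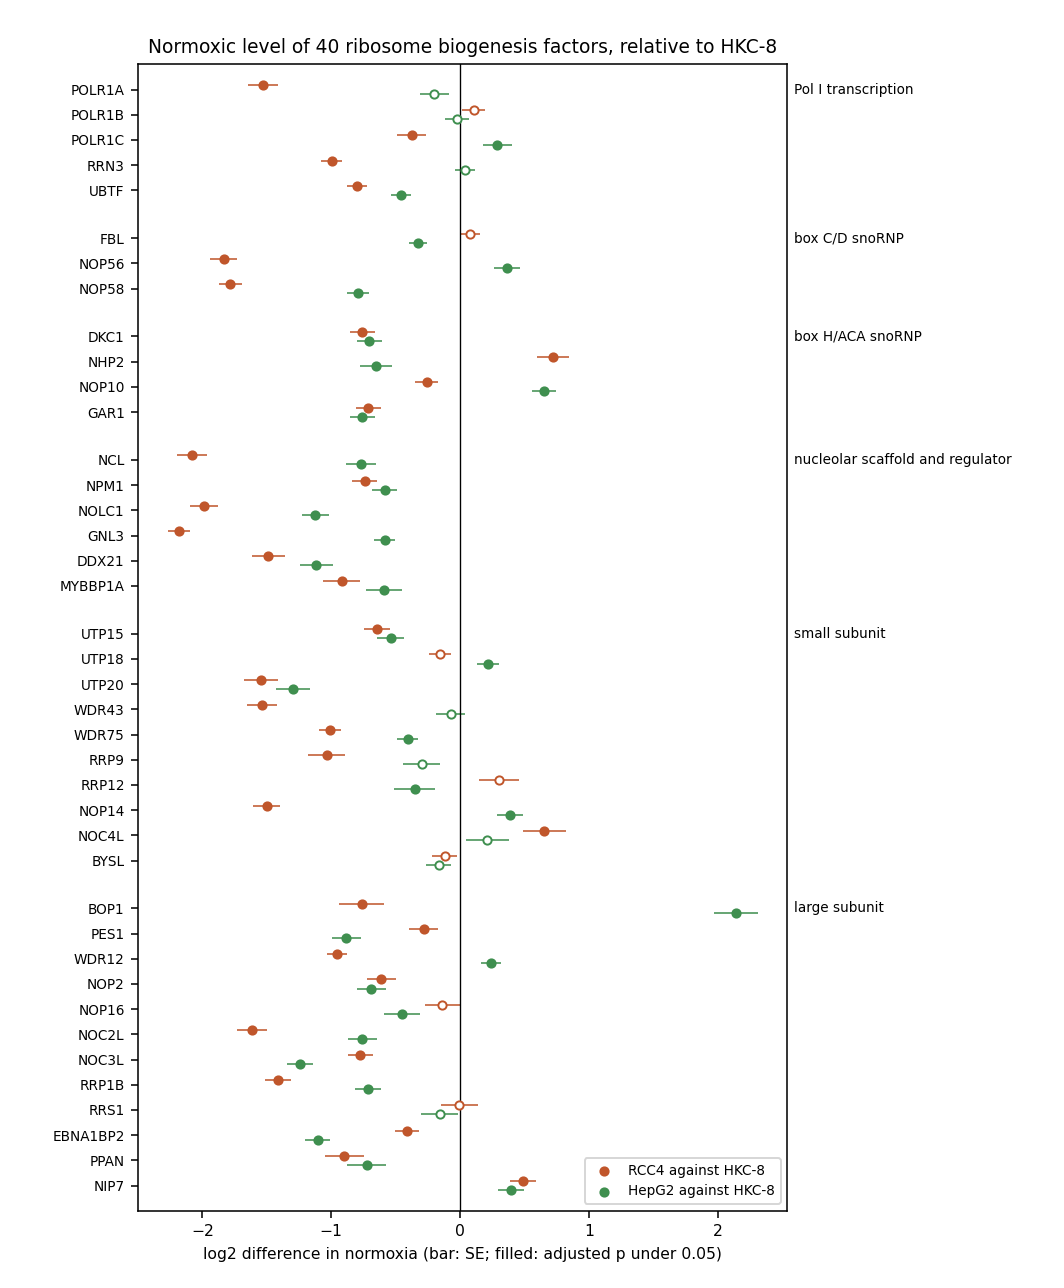
Points give the log2 difference of each of the 40 genes in normoxia between RCC4 and HKC-8 cells (orange) and between HepG2 and HKC-8 cells (green), with the SE as a bar and filled points for an adjusted p under 0.05 (3 replicates per group). Most points lie to the left of 0 (30 and 24 lower), GNL3, NCL and NOLC1 lie near -2 for RCC4 cells, and BOP1 lies at 2.14 for HepG2 cells.

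Levels of different genes were compared per kilobase of the canonical transcript, for the 39 members with a lifted one. NPM1 was the most abundant member in each group, at a mean of 2129 CPM per kilobase in normoxic HKC-8, 1264 in normoxic RCC4 and 1399 in normoxic HepG2 cells. The median over 39 members was 43.0, 26.5 and 39.2 CPM per kilobase in the same groups. NCL came second in HKC-8 and HepG2 cells (592 and 342 CPM per kilobase in normoxia) and NHP2 in RCC4 cells (247). Among these 39, the lowest were UTP15 in normoxic HKC-8 and HepG2 cells (11.5 and 7.83) and POLR1A in normoxic RCC4 cells (4.37). BOP1, the member without a lifted transcript, has no value per kilobase, so its place at the low end is not known.

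Small nucleolar or Cajal body RNAs are annotated on the same strand within the span of 8 members (POLR1C, NOP56, NOP58, DKC1, NCL, GNL3, WDR43 and PPAN). Whether they are cut from introns of these genes was not examined. In normoxia all 8 were lower in RCC4 than in HKC-8 cells, with a median log2 difference of -1.66, beside 22 of the other 32 with a median of -0.73. Between HepG2 and HKC-8 cells 5 of the 8 were lower and 2 higher (median -0.64), beside 19 lower and 6 higher of the other 32 (median -0.43). Between HepG2 and RCC4 cells 6 were higher and 0 lower (median 1.15), beside 15 higher and 8 lower (median 0.20). Of all genes tested, 41.4% were lower in RCC4 than in HKC-8 cells. In HepG2 cells 40.5% were lower and 42.6% higher than in HKC-8 cells, and 45.3% were higher and 38.1% lower than in RCC4 cells. The same 8 had median hypoxia responses of -0.38, -0.03 and -0.16 in HKC-8, RCC4 and HepG2 cells, and the other 32 had -0.40, -0.13 and -0.22. These medians are descriptions, and the grouping was chosen with the results known.

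Exons of 11 members overlap those of another coding gene in the count tables. The largest shares were those of NHP2 (28.0% of its exons, with RMND5B on the opposite strand), NIP7 (18.4%, with COG8) and NOP16 (12.3%, with ARL10), and whether counting used strand is not given in the sources used here. The levels of these 3 genes are uncertain to that extent. NOP56, NIP7 and RRN3 each have 3 named pseudogenes, which can take reads away from them where fragments do not map uniquely.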

How the data were processed

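The data are polyA+ RNA-seq of 3 cell lines in normoxia or hypoxia (18 samples, 3 per group). The authors trimmed reads (Trim Galore 0.3.3), aligned them to GRCh37 (TopHat 2.0.8b, Bowtie 1.0.0), removed fragments that did not map uniquely (SAMtools 0.1.19) and counted reads per UCSC gene with HTSeq 0.5.4p3 in intersection-strict mode. The deposited values are raw counts per gene, of which no table row lacks a gene name. Everything else was computed here with R 4.3.3, edgeR 4.0.16, DESeq2 1.42.0 and Python. Samples were grouped by their labels. Counts were filtered with filterByExpr, scaled by TMM and tested per line with glmQLFit and glmQLFTest, and p-values were adjusted by Benjamini-Hochberg over all genes tested. The normoxic contrasts came from 1 fit of 9 samples and the interaction from 12. The standard error is the size of the log2 fold change divided by the square root of F. The fits were tested on simulated data.

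Replicate numbers come from the labels. The shifts of samples away from their group mean correlated between equal numbers in HKC-8 cells (r 0.120 to 0.480, every pair over 0.1). Between unequal numbers r was -0.485 to 0.118 there. The 1st normoxic replicate correlated alike with the 1st and the 2nd hypoxic one (0.120 and 0.118), so a pairing was shown for replicates 2 and 3 only. Equal numbers did not correlate in this way in RCC4 cells (mean r 0.0121) or throughout HepG2 cells (lowest r 0.0611). No replicate pair was identical or within sampling noise.

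Members and lists were chosen with earlier results of these data known. The members given with values in every sample were, per comparison, the 4 called with the largest rise and fall under hypoxia, those called in all 3 lines or in opposite directions, the 3 called with the largest difference each way in normoxia, and NCL, NPM1, FBL, DKC1, POLR1A and UBTF. DESeq2, median-of-ratios scaling, other filters, 1 fit of all 18 samples, a replicate block, thinning to equal totals and leaving out each library were the alternatives. Gene positions are from GENCODE v44 lifted to GRCh37. The ChIP-seq data of the study were not used here.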

Additional observations from a re-analysis of the deposited data

Results flagged for a closer look

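Members whose 3 hypoxic libraries all lay on one side of the 3 normoxic ones in 1 line, and on the opposite side in another, were looked for, and 3 of 40 were found, where 12.1% of the 11418 genes tested in all lines met the same rule. For each of them RCC4 was one of the opposed lines. The difference from RCC4 cells was not tested, because these had another labelled oxygen level and duration. Between HKC-8 and HepG2 cells, UTP20 and PPAN passed with the replicate block and WDR43 did not. In the same fit of 12 samples without the block, no member passed. UTP20 had a log2 fold change of -0.57 in HKC-8 and 0.20 in RCC4 cells, and both passed the test within their line. WDR43 had 0.45 in RCC4 and -0.17 in HepG2 cells, both past the test. PPAN had -0.076 in RCC4 cells, where it did not pass (adjusted p = 0.285), and 0.28 in HepG2 cells, where it did.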

How the results depend on the processing

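Of 2296 refits of called members, 2121 kept direction and call, 175 kept the direction without passing, and 0 turned. In 1 fit of all 18 samples, which shares 1 estimate of the spread, 35 members were lower in HKC-8, 4 lower and 1 higher in RCC4, 15 lower and 1 higher in HepG2 cells, and 1 had a HepG2 response above that of HKC-8 cells, where DESeq2 also called 1. With the replicate block, 37 were lower in HKC-8 cells and 7 had a HepG2 response above that of HKC-8 cells. The pairing it assumes was shown for the 2nd and 3rd HKC-8 replicates only. In RCC4 and HepG2 cells, where the numbers were not shown to pair samples, the blocked counts were 21 lower with 5 higher and 24 lower with 3 higher. Within a comparison the block moved no other count of members by over 1.5 times, and it moved those lower in all 3 lines from 10 to 19. Without a low-count filter 5 members were higher in normoxic HepG2 than HKC-8 cells. With 1 library left out, HKC-8 cells had 3 to 34 members lower in hypoxia and 0 higher, RCC4 cells 17 to 20 lower and 3 to 4 higher, and HepG2 cells 15 to 23 lower and 2 to 3 higher. Members with a HepG2 response above that of HKC-8 cells numbered 0 to 8, and 0 had one below it. Members higher in normoxic HepG2 than HKC-8 cells numbered 5 to 8. The cause of these shifts was not tested. Where a refit is given without the share of all genes, a change of the members cannot be told from a change of all calls. Leaving out a library leaves 2 samples in its group. At the lowest member count, 322, counting error adds to the spread between replicates.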
